A study of Mus musculus with 24 samples.

Results

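The major histocompatibility complex (MHC) class II genes followed here were H2-Aa, H2-Ab1, H2-Eb1, Cd74, Ciita, H2-DMa and H2-DMb1. They were chosen by symbol, all 7 were present among the 49568 gene symbols counted in every library, and all 7 were among the 20187 genes that passed the filter on low counts. The data are poly(A) RNA sequencing of the hippocampus of individual male mice aged 21 to 23 months, 1 library per mouse. WT mice and MSK1 KD mice, in which a point mutation of the endogenous Rps6ka5 gene abolishes the kinase activity of MSK1, were kept as separate lines on a C57-Bl/6J background, in standard housing (WTSH and KDSH) or in enriched housing from 18 months of age (WTEE and KDEE). The groups held 6 mice each, and the study left out WTSH mice 4 and 7 and KDSH mouse 6, so that 4 WTSH, 6 WTEE, 5 KDSH and 6 KDEE libraries were tested. The mutation is global, so every cell type of the KD mice carries it, and several males of a group can have shared a cage. Cage and sequencing lane are not given in the labels used here.

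MHC class II molecules are heterodimers of an alpha and a beta chain that present peptides from endocytosed proteins to CD4+ T cells. H2-Aa and H2-Ab1 encode the alpha and beta chain of I-A, and H2-Eb1 encodes the beta chain of I-E, whose alpha chain gene is defective in C57-Bl/6 mice. Cd74 encodes the invariant chain that guards the peptide groove on the way to the endosome, H2-DMa and H2-DMb1 encode the chaperone that exchanges its remnant for a peptide, and Ciita encodes the coactivator that switches the other genes on. In the healthy brain parenchyma few cells express these genes, and dendritic cells, border macrophages of the meninges and choroid plexus, B cells and activated microglia are the known sources.

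All but 2 members lie in the MHC on chromosome 17 of GRCm38. H2-DMa (ENSMUSG00000037649) spans chr17:34119541-34139101, H2-DMb1 chr17:34153072-34160230, H2-Ab1 (ENSMUSG00000073421) chr17:34257689-34269419 and H2-Eb1 chr17:34305867-34316674, all on the plus strand, and H2-Aa (ENSMUSG00000036594) spans chr17:34282744-34287823 on the minus strand. Ciita lies on chromosome 16 (chr16:10480059-10528418, plus strand). Class II promoters are known for an X box bound by the RFX complex and a Y box bound by NF-Y, which CIITA needs to act. Promoter windows of 300 bases, from 250 bases before to 50 after a start site, were at hand in RefSeq (GRCm38.p6) for 4 of the 7 members, H2-Aa, H2-Eb1, H2-DMb1 and H2-DMa. The stretch of each window that resembles this layout is given to make the shared promoter element of the class visible, with GNAAC, letters found in the X box, and GATTGG, the core of the Y box, in capitals.
H2-Aa, chr17:34287859-34287912, minus strand: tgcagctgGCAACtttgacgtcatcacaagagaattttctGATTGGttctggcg
H2-Eb1, chr17:34305768-34305820, plus strand: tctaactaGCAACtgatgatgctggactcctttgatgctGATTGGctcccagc
H2-DMb1, chr17:34153089-34153142, plus strand: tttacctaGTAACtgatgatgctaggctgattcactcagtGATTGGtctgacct
GNAAC and GATTGG were separated by 27, 26 and 27 bases in these windows. The pair with a gap of 25 to 29 bases, on either strand, was found in 112 of 32851 promoter windows (0.341%), whereas GATTGG alone was found in 16.1%. Neither of the windows of H2-DMa held the pair. The RefSeq start used for H2-DMb1 lies downstream of the gene start given above from GENCODE, so its stretch falls inside the gene span, as do both windows of H2-DMa, whereas those of H2-Aa and H2-Eb1 lie just before theirs. The letters and the gap were chosen with these sequences in view, so their presence is a description.

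The 21 libraries tested held 27410239 to 71907130 counts on genes, and the 3 left-out libraries 15800187 to 39585901, with a larger share of read pairs that matched no gene (16.4% to 33.0%, against 8.41% to 15.7%). WTEE mouse 10 stood apart among the tested libraries, with the highest share of ambiguous read pairs (6.57%). The summed level of 8 hippocampal neuron markers was 207970 normalized counts in this mouse, the lowest of the 21. The lowest sums of WTSH, KDSH and KDEE were 298160, 295160 and 295860. Camk2a (111220, against a mean of 203730), Prox1 and Gad1 were at their lowest there, whereas Calb1 and Spink8 were at their highest. The cause was not tested. A set of 5 libraries, defined here from the data and not by the labels, carried abundant transcripts of the choroid plexus, the epithelium that secretes the cerebrospinal fluid: WTSH mouse 19, WTEE mice 10 and 13 and KDEE mice 12 and 14 held 119830 to 434940 normalized counts of Ttr, the transthyretin gene, and the other 16 held 233 to 4210. No KDSH library was among the 5. The comparisons, SDs and correlations are therefore given in all 21 libraries and, for the most part, also in the 16 with Ttr under 10000, a set chosen after seeing the data. In bulk tissue, fewer cells of a type and less RNA per cell cannot be told apart. Rps6ka5 averaged 1119 ± 101 (SD, n = 4) normalized counts in WTSH and 1158 ± 21.9 (SD, n = 5) in KDSH, which is no check of a point mutation.

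Per kilobase of exon, H2-DMa was the member with the highest mean level over the 21 mice (182 normalized counts per kb), followed by Cd74 (148), H2-DMb1 (59.8), H2-Eb1 (54.7), H2-Ab1 (36.5), H2-Aa (29.6) and Ciita (10.1). Each distance between neighbours in this order was smaller than the larger of their SDs over mice. H2-DMa shares 360 exon bases with Brd2 on the opposite strand, a gene at a mean of 10211 to 10659 normalized counts in each group, and Ciita shares 329 with Dexi. Because reads were counted without regard to strand, reads of these overlapping genes cannot be told apart, and the levels of H2-DMa and Ciita are uncertain to that extent.

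Cd74, the most abundant per kilobase of the 4 genes for the chains and the invariant chain, differed more between mice of a group than between groups. The gene (ENSMUSG00000024610) spans bases 60803848 to 60812652 of chromosome 18 on the plus strand. Its normalized counts were 120.0, 148, 252.5 and 271.5 in the 4 WTSH mice and 77.6, 93.1, 191, 220.1 and 334 in the 5 KDSH mice. In WTEE the lowest, median and highest values were 129, 194.5 and 727, and in KDEE 109, 267 and 593. The 2 highest mice were WTEE mouse 10 and KDEE mouse 12, and the ranges of all 4 groups overlapped. The group means were 198 ± 75.2 (SD, n = 4) in WTSH, 294 ± 231 (SD, n = 6) in WTEE, 183 ± 104 (SD, n = 5) in KDSH and 293 ± 175 (SD, n = 6) in KDEE.

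H2-Aa gave the same picture. It stood at 42.5, 47.7, 117 and 158 normalized counts in WTSH and at 34.9, 43.5, 84.8, 89.7 and 134 in KDSH. The lowest, median and highest values were 40.7, 79.6 and 409.5 in WTEE and 46.2, 100.2 and 299 in KDEE. WTEE mouse 10 and KDEE mouse 12 were again the highest, and the medians of the 4 groups lay closer together than the mice of any group.

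H2-Ab1, the partner chain of H2-Aa, ranged from 43.7 to 106 normalized counts in WTSH, 35.2 to 335 in WTEE, 27.9 to 104 in KDSH and 48.2 to 212 in KDEE. H2-Eb1 ranged from 57.6 to 127 in WTSH, 51.4 to 337 in WTEE, 48.2 to 109.7 in KDSH and 73.5 to 274 in KDEE. The upper end of both enriched groups was again set by the mice with abundant Ttr. The I-E beta chain was counted although H2-Ea-ps, the defective alpha gene, had 0 counts in all but 1 of the 21 libraries, where it had 1 count.

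Ciita ran the other way, with lower values in enriched mice. Its normalized counts were 83.9, 98.4, 110.4 and 133 in WTSH and 95.4, 104, 123, 124 and 150.4 in KDSH. The lowest, median and highest values were 25.1, 73.6 and 143 in WTEE and 64.6, 78.8 and 119 in KDEE. The lowest value of all was that of WTEE mouse 10, the mouse with the highest Cd74, and the groups overlapped.

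H2-DMa was the steadiest member, with a mean of 653 ± 21.5 (SD, n = 4) normalized counts in WTSH, 667 ± 129 (SD, n = 6) in WTEE, 583 ± 52.5 (SD, n = 5) in KDSH and 608 ± 52.4 (SD, n = 6) in KDEE. H2-DMb1 stood at 66.9, 78.2, 80.5 and 146 in WTSH and at 64.6, 75.9, 80.5, 83.8 and 85.7 in KDSH. The lowest, median and highest values of H2-DMb1 were 73.8, 88.3 and 210.1 in WTEE and 84.9, 112 and 148 in KDEE. Of the KDEE mice, all but the lowest were above the highest KDSH mouse. H2-DMb1 has a close paralog, H2-DMb2, at 8.21 to 35.2 normalized counts, from which some reads may not be separable.

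**Figure D1:**
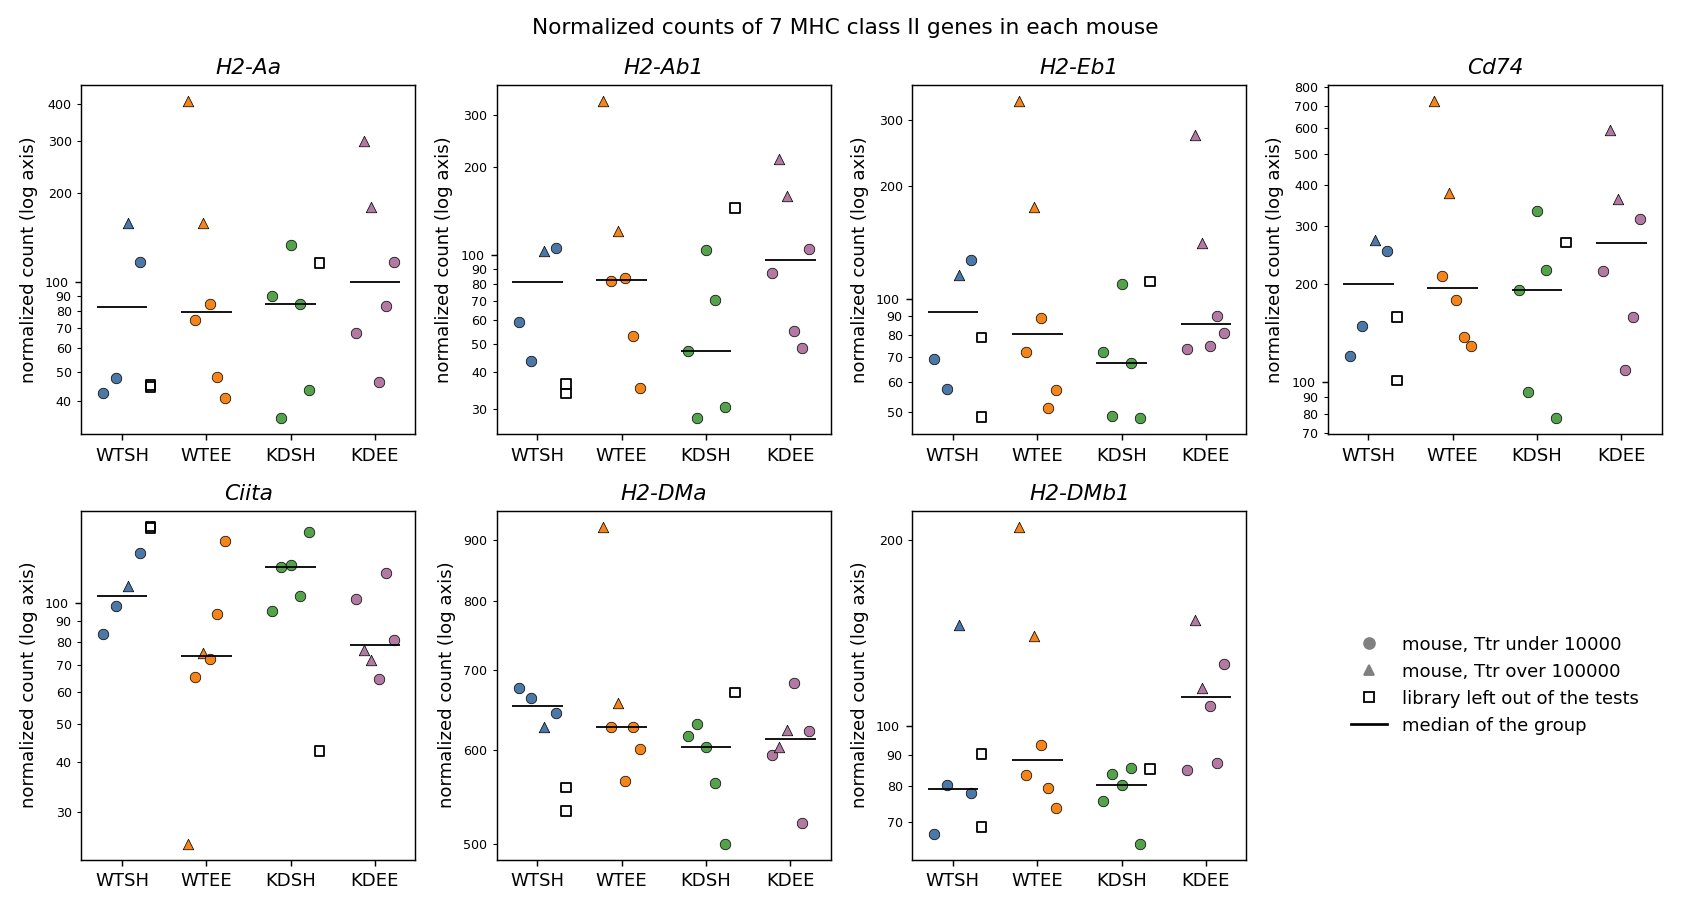
Normalized counts of the 7 genes in each mouse (log axes), by group, with horizontal lines at the group medians. Triangles are the 5 mice with Ttr over 100000 normalized counts and open squares the left-out libraries. The highest mouse for H2-Aa, H2-Ab1, H2-Eb1, Cd74, H2-DMa and H2-DMb1, and the lowest for Ciita, is WTEE mouse 10.

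The 3 left-out libraries fell on both sides of their groups. WTSH mice 4 and 7 held 101 and 158 normalized counts of Cd74 and 44.5 and 45.2 of H2-Aa, within the range of the tested WTSH mice or just under it. KDSH mouse 6 held 268 of Cd74, 116 of H2-Aa and 145 of H2-Ab1, the last above every tested KDSH mouse. Ciita stood at 154 and 155 in WTSH mice 4 and 7, above the other WTSH mice, and at 42.7 in KDSH mouse 6, under the other KDSH mice.

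Enrichment was compared with standard housing within each genotype to ask whether housing changed class II transcripts with and without MSK1 activity. In WT mice, the log2 fold change (WTEE minus WTSH) was 0.57 ± 0.51 (SE) for Cd74, 0.57 ± 0.61 for H2-Aa, 0.59 ± 0.53 for H2-Ab1 and 0.50 ± 0.48 for H2-Eb1. It was 0.28 ± 0.27 for H2-DMb1, 0.03 ± 0.11 for H2-DMa and -0.43 ± 0.28 for Ciita. None of the 7 passed edgeR's quasi-likelihood test at a Benjamini-Hochberg adjusted p under 0.05 with an absolute log2 fold change over 0.38 (adjusted p = 0.651 to 0.924), where 0% of all genes tested were called. None of the 7 had an unadjusted p under 0.05, against 6.55% of all genes, and DESeq2 called 0 of the 7 and 0.00529% of all genes. No member had groups that did not overlap, against 0.986% of all genes. An approximate 95% interval of the Cd74 difference, from its SE by a normal approximation, was -0.44 to 1.57 on the log2 scale. It left room for a change of either sign.

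In MSK1 KD mice the differences (KDEE minus KDSH) pointed the same way, at a log2 fold change of 0.67 ± 0.48 (SE) for Cd74, 0.76 ± 0.58 for H2-Aa, 0.97 ± 0.52 for H2-Ab1 and 0.82 ± 0.46 for H2-Eb1. They were 0.51 ± 0.26 for H2-DMb1, 0.06 ± 0.10 for H2-DMa and -0.47 ± 0.27 for Ciita. Here too edgeR called none of the 7 (adjusted p = 0.444 to 0.808), with 0% of all genes called. At an unadjusted p under 0.05 were 0 of the 7 and 11.6% of all genes, and DESeq2 called 0 of the 7 and 0.0866% of all genes. The groups of every member overlapped, whereas those of 1.84% of all genes did not.

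These differences changed with the 5 libraries rich in Ttr, and the number of such libraries was not balanced, with 1 of 4 in WTSH, 2 of 6 in WTEE, 0 of 5 in KDSH and 2 of 6 in KDEE. In the 16 other libraries the log2 fold change between WTEE (n = 4) and WTSH (n = 3) was -0.08 ± 0.41 (SE) for Cd74, -0.15 ± 0.43 for H2-Aa, -0.13 ± 0.41 for H2-Ab1 and -0.33 ± 0.28 for H2-Eb1. Between KDEE (n = 4) and KDSH (n = 5) it was 0.09 ± 0.36 for Cd74, -0.02 ± 0.38 for H2-Aa, 0.36 ± 0.37 for H2-Ab1 and 0.20 ± 0.26 for H2-Eb1. All 4 genes thus turned to the other sign in WT mice, and edgeR again called 0 of the 7 members and 0% of all genes in either genotype. Ciita kept its sign in both genotypes, at -0.18 ± 0.25 and -0.37 ± 0.23, and H2-DMb1 at 0.13 ± 0.16 and 0.36 ± 0.14, the latter with an unadjusted p of 0.018 and an adjusted p of 0.351 in edgeR. It was the only 1 of the 7 with an unadjusted p under 0.05 in KD mice there, against 12.3% of all genes. Without WTEE mouse 10 alone, the WT differences were 0.07 ± 0.45 for Cd74 and -0.16 ± 0.52 for H2-Aa. Without KDEE mouse 12 alone, the KD differences were 0.33 ± 0.47 for Cd74, 0.34 ± 0.57 for H2-Aa, 0.68 ± 0.52 for H2-Ab1 and 0.41 ± 0.44 for H2-Eb1.

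**Figure D2:**
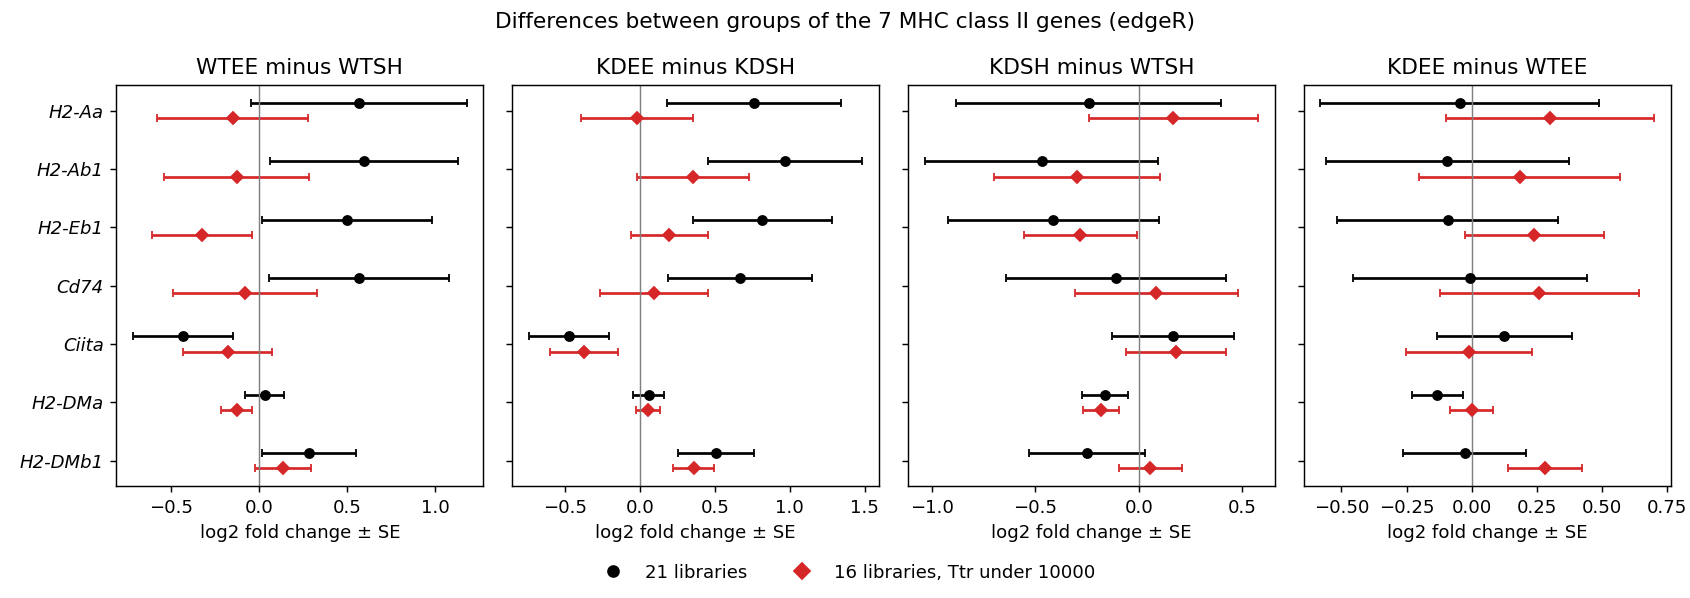
Log2 fold change and its SE (edgeR) of the 7 genes in 4 comparisons, in 21 libraries (black circles) and in the 16 with Ttr under 10000 (red diamonds). In WTEE minus WTSH, H2-Aa, H2-Ab1, H2-Eb1 and Cd74 lie above 0 with 21 libraries and under 0 with 16.

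Averaged over both genotypes, enriched mice had a log2 fold change of 0.78 ± 0.37 (SE) for H2-Ab1, 0.66 ± 0.42 for H2-Aa, 0.66 ± 0.34 for H2-Eb1 and 0.62 ± 0.35 for Cd74. H2-DMb1 was at 0.40 ± 0.18, H2-DMa at 0.05 ± 0.07 and Ciita at -0.45 ± 0.19. H2-Ab1, H2-DMb1 and Ciita, 3 of the 7, had an unadjusted p under 0.05 (0.048, 0.044 and 0.030), as did 18.9% of all genes tested, and none was called after adjustment (edgeR adjusted p = 0.241 to 0.738). In this comparison 0.00495% of all genes were called, which was the single gene Ighm. DESeq2 called 0 of the 7 and 0.233% of all genes, and the enriched and standard-housed mice overlapped for each of the 7. In the 16 libraries edgeR called 0 of the 7 and 0.00497% of all genes, and H2-DMb1 alone, 1 of the 7, had an unadjusted p under 0.05, against 14.6% of all genes, at a log2 fold change of 0.25 ± 0.10 (edgeR adjusted p = 0.296), while Cd74 was at 0.01 ± 0.27.

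Genotype was compared within each housing to ask whether the loss of MSK1 activity changed these transcripts. Under standard housing, the log2 fold change (KDSH minus WTSH) ran from -0.47 ± 0.56 (SE) for H2-Ab1 to 0.16 ± 0.29 for Ciita, with Cd74 at -0.11 ± 0.53. Under enrichment (KDEE minus WTEE), Cd74 was at -0.01 ± 0.45, H2-Aa at -0.05 ± 0.54 and Ciita at 0.13 ± 0.26. The latter values turned on single mice, since without WTEE mouse 10 Cd74 was at 0.49 ± 0.41, H2-Aa at 0.68 ± 0.47 and Ciita at -0.05 ± 0.20, and without KDEE mouse 12 Cd74 was at -0.34 ± 0.45 and H2-Aa at -0.47 ± 0.54. In both comparisons edgeR called 0 of the 7 (smallest adjusted p = 0.957) and 0% of all genes. At an unadjusted p under 0.05 were 0 of the 7 in each, against 1% and 4.99% of all genes, and DESeq2 called 0 of the 7 in each, against 0% and 0.438%. No member separated the groups, against 0.644% and 0.624% of all genes. With the 16 libraries alone, KDSH minus WTSH was at 0.08 ± 0.39 for Cd74, -0.30 ± 0.40 for H2-Ab1 and 0.18 ± 0.24 for Ciita, and H2-DMa alone, at -0.18 ± 0.09, had an unadjusted p under 0.05 (0.048, edgeR adjusted p = 0.9998), against 1.95% of all genes. KDEE minus WTEE was there at 0.26 ± 0.38 for Cd74, 0.30 ± 0.40 for H2-Aa and -0.01 ± 0.24 for Ciita, with 0 of the 7 at an unadjusted p under 0.05, against 4.43% of all genes, and edgeR called 0 of the 7 and 0% of all genes in both. The interaction, which tests whether enrichment acted differently in the 2 genotypes, was at 0.10 ± 0.70 for Cd74, 0.38 ± 0.73 for H2-Ab1 and -0.04 ± 0.39 for Ciita, and edgeR called 0 of the 7 (smallest adjusted p = 0.9999) and 0% of all genes. At an unadjusted p under 0.05 were 0 of the 7 and 3.26% of all genes, and DESeq2 called 0 of the 7 and 0.0762% of all genes. Averaged over both housings (KD minus WT), H2-DMa was at -0.15 ± 0.07 and Cd74 at -0.06 ± 0.35. There edgeR and DESeq2 called 0 of the 7 and 0% of all genes, and 0 of the 7 had an unadjusted p under 0.05, against 1.9% of all genes.

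The spread between mice of one group was the larger part of the variation for every member. It made up 92.7% of the variation over the 21 mice for H2-Aa, 89.2% for Cd74, 86.6% for H2-Eb1, 81.9% for H2-Ab1, 80.6% for H2-DMa, 78.6% for H2-DMb1 and 71.5% for Ciita. With 4 groups and 21 mice, most of the variation lies within groups even where groups do not differ. These shares are therefore a description, and the shares of all genes were not computed. The SD between mice of a group, on a log2 scale with 1 count added, was 1.01 for H2-Aa, 0.88 for H2-Ab1, 0.86 for Cd74 and 0.77 for H2-Eb1. These 4 SDs lay at the 97.9th, 96.7th, 96.4th and 95.0th percentile of all genes tested, and at the 96.9th percentile or above among genes within 2-fold of their mean level. The SD was 0.51 for Ciita, 0.42 for H2-DMb1 and 0.17 for H2-DMa, and 83.9%, 77.5% and 38.03% of all genes tested had a smaller or equal SD. Within the class, therefore, the chains and the invariant chain varied widely between mice while H2-DMa, which belongs to the same pathway, lay near the middle of the 4218 genes within 2-fold of its mean level, 56.3% of which had a smaller SD. In the 16 libraries with Ttr under 10000 the SD was 0.67 for H2-Aa, 0.65 for H2-Ab1, 0.66 for Cd74 and 0.41 for H2-Eb1.

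**Figure D3:**
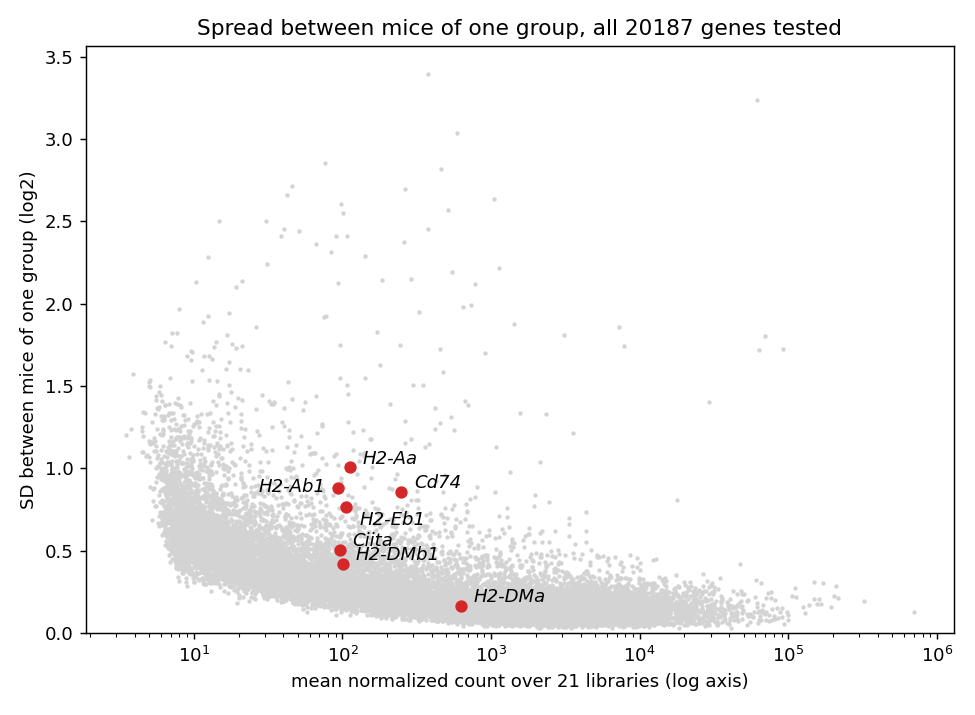
SD between mice of one group (log2 scale) against the mean normalized count (log axis) for all genes tested in grey, with the 7 members in red. H2-Aa, H2-Ab1, Cd74 and H2-Eb1 lie above most genes of their level, and H2-DMa lies among them.

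The same mice were high for the 4 variable genes. WTEE mouse 10, KDEE mouse 12, WTEE mouse 13 and KDEE mouse 14 were among the top 5 mice for each of H2-Aa, H2-Ab1, H2-Eb1 and Cd74, and all 4 belonged to the 5 libraries rich in Ttr. The remaining library rich in Ttr, WTSH mouse 19, ranked 5th for H2-Aa and 7th for Cd74. The 5 libraries held 158 to 409.5 normalized counts of H2-Aa and the 16 others 34.9 to 134, while for Cd74 the values were 272 to 727 and 77.6 to 334. They were 103 to 335 and 27.9 to 106 for H2-Ab1, and 116 to 337 and 48.2 to 127 for H2-Eb1. The share of all genes without overlap between these sets of libraries was not computed, so the ranges are a description. The part of choroid plexus tissue in these levels was not tested.

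**Figure D4:**
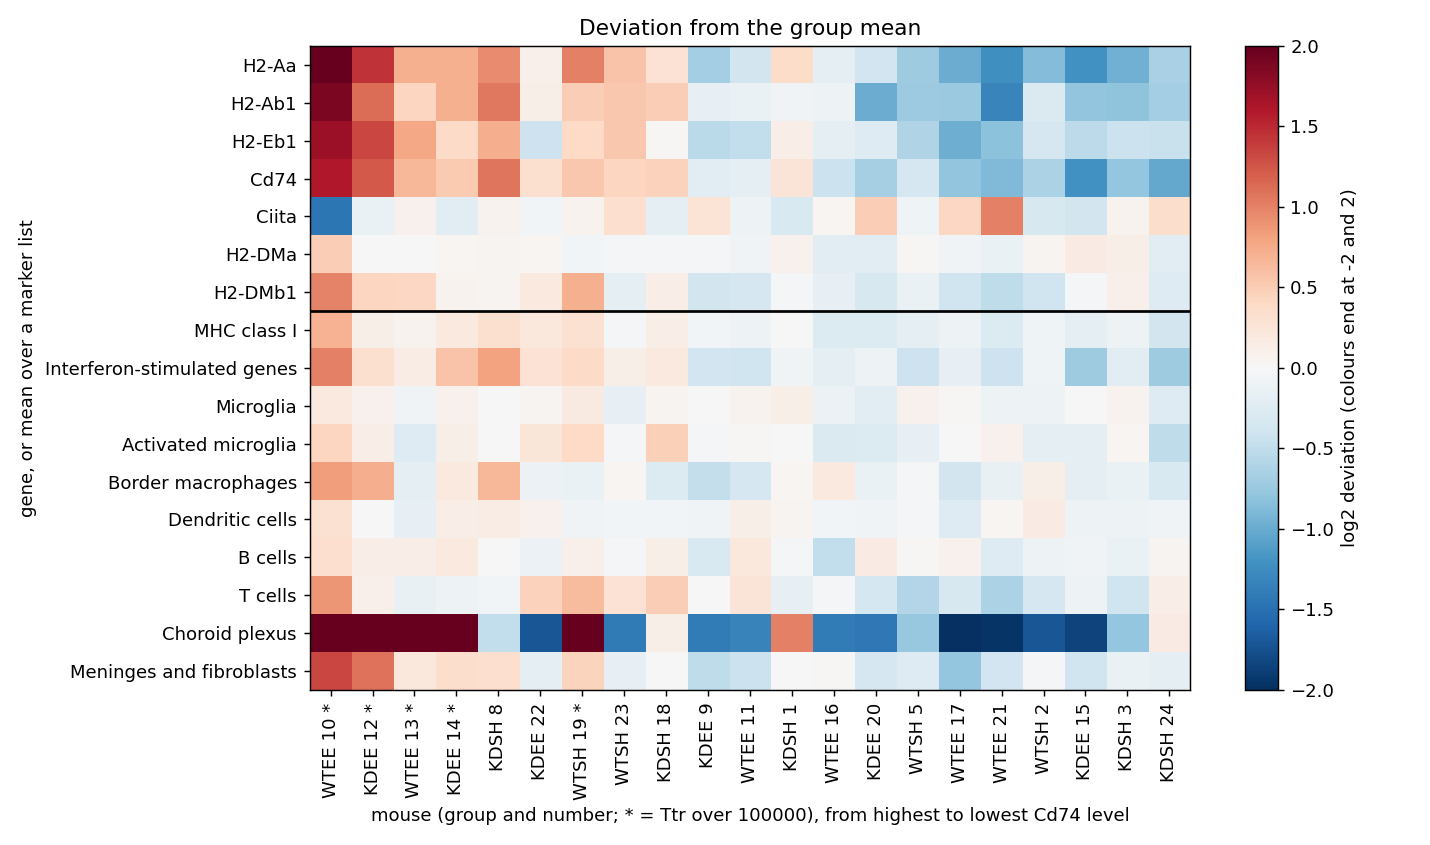
Deviation of each mouse from its group mean (log2 scale, colours end at -2 and 2) for the 7 members and for the mean of marker lists, with mice ordered from the highest to the lowest Cd74 level and an asterisk for Ttr over 100000. H2-Aa, H2-Ab1 and H2-Eb1 follow the order of Cd74, H2-DMa stays near 0, and the choroid plexus list is high in the 5 mice with an asterisk.

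Deviations from the group mean were correlated with those of Cd74 across the 21 mice, as 20 relations in all, by a two-sided permutation test within groups with Benjamini-Hochberg adjustment. Pearson's r was 0.96 for H2-Aa (Spearman's rho = 0.93), 0.95 for H2-Ab1 (rho = 0.93) and 0.89 for H2-Eb1 (rho = 0.84). Each of these r had a permutation p of 1e-05, the smallest that 100000 permutations can give, and an adjusted permutation p of 4e-05, and the permutation p of rho was 1e-05, 1e-05 and 2e-05. Without the 2 mice farthest from the median of Cd74, WTEE mouse 10 and KDEE mouse 12, r was 0.93, 0.92 and 0.82. In the 16 libraries with Ttr under 10000, r was 0.92 (rho = 0.92), 0.89 (rho = 0.89) and 0.75 (rho = 0.68), with adjusted permutation p of 0.0028, 0.0028 and 0.011.

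The other members followed Cd74 less closely. H2-DMb1 correlated with r = 0.75 (rho = 0.71, permutation p = 0.00014 and 0.00078, adjusted 0.0004 and 0.00195) in 21 mice, with 0.59 without the 2 farthest mice and with 0.44 in the 16 libraries (rho = 0.38, adjusted permutation p = 0.296 and 0.416). H2-DMa was at r = 0.47 (rho = 0.30, adjusted permutation p = 0.081 and 0.237), at 0.18 without the 2 farthest mice and at 0.10 in the 16 libraries. Ciita, the coactivator of the class, was at r = -0.51 (rho = -0.31, permutation p = 0.039 and 0.204, adjusted 0.056 and 0.237), which rested on WTEE mouse 10, since r was -0.24 without it and -0.22 without the 2 farthest mice, and r was -0.13 in the 16 libraries (adjusted permutation p = 0.747).

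**Figure D5:**
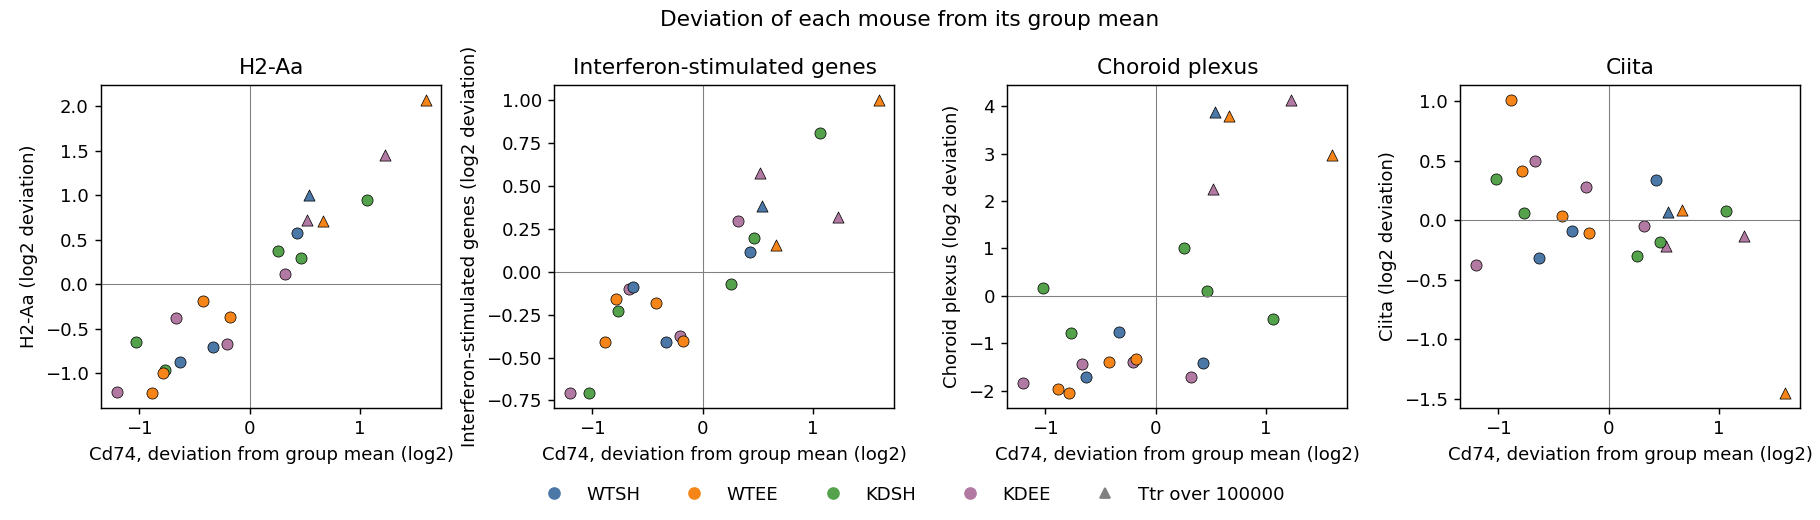
Deviation of each mouse from its group mean on the log2 scale, Cd74 on the x axis against H2-Aa, the mean of interferon-stimulated genes, the mean of choroid plexus markers and Ciita. Triangles are the 5 mice with Ttr over 100000, which lie apart from the rest for choroid plexus markers, and H2-Aa and the interferon-stimulated genes rise with Cd74 among the circles as well.

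Of the marker lists, interferon-stimulated genes and MHC class I genes had the highest r with Cd74 in the 21 mice. The mean of 14 interferon-stimulated genes, such as Ifit1 and Isg15, correlated with r = 0.89 (rho = 0.87, adjusted permutation p = 4e-05 and 6.67e-05), with 0.86 without the 2 farthest mice and with 0.83 in the 16 libraries (rho = 0.76, adjusted permutation p = 0.011 and 0.055). The mean of 9 MHC class I and class I loading genes, such as H2-K1 and B2m, correlated with r = 0.87 (rho = 0.87, adjusted permutation p = 4e-05 and 8e-05), with 0.87 without the 2 farthest mice and with 0.85 in the 16 libraries (rho = 0.83, adjusted permutation p = 0.0087 and 0.011). Without the 2 mice farthest from the median of Cd74 among the 16, KDSH mice 8 and 24, r was 0.69 for interferon-stimulated genes and 0.73 for class I genes, under the 0.80 of the 4 T cell markers tested. The summed level of the 14 interferon-stimulated genes ran from 2049 to 3404 normalized counts in WTSH, 1955 to 4742 in WTEE, 1578 to 3864 in KDSH and 2246 to 4770 in KDEE, so that these genes varied between mice in every group. KDSH mouse 8, the fifth mouse by Cd74, had Ttr at 316 and lay above its group mean by 0.81 on the log2 scale for interferon-stimulated genes, by 4.40 for pituitary genes, by 0.66 for border macrophages, by 0.57 for blood and by 0.34 for meninges and fibroblasts. The part of these tissues in its class II levels was not tested.

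Markers of microglia, macrophages and other immune cells had a lower r with Cd74 than those lists in the full 21 and the full 16 libraries. In the 16 libraries r was 0.35 for 10 microglial markers (adjusted permutation p = 0.461), 0.56 for 7 markers of activated microglia (0.193) and 0.44 for 8 of border macrophages (0.367). It was 0.45 for the 8 genes tested of dendritic cells (0.193), 0.04 for the 7 of B cells (0.871) and 0.54 for the 4 of T cells (0.131). These 4 were Cd4, Cd8a, Trbc2 and Lck, and list genes too low to be tested entered no correlation. For the choroid plexus the 21 mice fell into separate clusters, so no pooled value is given, and r was 0.18 in the 16 libraries (rho = 0.21, adjusted permutation p = 0.747 and 0.663). It was 0.49 for meninges and fibroblasts (0.131), 0.24 for endothelium (0.702), 0.43 for pituitary (0.393), 0.13 for blood (0.724) and -0.06 for library size (0.871). Several of these values in the 16 libraries rested on KDSH mice 8 and 24, without which r was -0.05 for border macrophages, 0.29 for dendritic cells, 0.13 for microglia, 0.26 for meninges and fibroblasts, -0.11 for endothelium and -0.06 for pituitary, but 0.80 for T cells, 0.55 for activated microglia and 0.50 for the choroid plexus. In all 21 libraries r was higher for microglia (0.54), activated microglia (0.59), border macrophages (0.69), T cells (0.61), meninges and fibroblasts (0.81) and endothelium (0.61), with an adjusted permutation p of 0.027 at most, and without the 2 farthest mice these r were 0.40, 0.47, 0.42, 0.49, 0.68 and 0.36. Their rho ran from 0.50 to 0.77 in 21 mice (adjusted permutation p = 0.00063 to 0.052). For dendritic cells, B cells, pituitary, blood and library size, r in 21 mice ran from 0.09 to 0.49 (adjusted permutation p = 0.067 to 0.746).

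The levels of these markers set the scale. The sum of the choroid plexus markers ran from 1548 to 216020 normalized counts in WTSH, 2309 to 291700 in WTEE, 1327 to 5289 in KDSH and 4341 to 476130 in KDEE. The T cell genes Cd3e, Cd3d and Cd3g and the B cell gene Ms4a1 were too low to be tested, with a mean of 2.14 to 4.23 normalized counts over the 21 mice, and Ifng averaged 0.55. The summed T cell list, with all 9 genes, ran from 111 to 181 in WTSH, 119 to 174 in KDSH, 139 to 210.3 in KDEE and 122 to 341 in WTEE, the last in mouse 10. The summed microglial list ran from 17235 to 24150 over the 4 groups, so no library was devoid of microglia. The 5 haemoglobin and red cell genes of the blood list all had an unadjusted p under 0.05 with a positive sign in enriched mice (median log2 fold change 1.46), against 9.77% of all genes in that direction, and edgeR called 0 of them (smallest adjusted p = 0.174). All 5 again had a positive sign at an unadjusted p under 0.05 in the 16 libraries, against 6.98% of all genes in that direction, and edgeR called 0 of the 5 there (smallest adjusted p = 0.195). The part of blood, meninges or any of these cell types in the class II levels was not tested.

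The genes whose pattern over the 21 mice was most like the mean of H2-Aa, H2-Ab1, H2-Eb1 and Cd74, by Pearson's r of log2 deviations, were Ifih1 (0.93), an RNA sensor, Ifitm3 (0.92), an interferon-induced membrane protein, Fbln5 (0.92), an elastic fibre protein, and H2-T23 (0.90), a class I gene. Tgtp1 (0.89), Clec12a (0.89), Gstm2 (0.89), Slc6a20a (0.89), Bmp7 (0.88) and Slc13a4 (0.87) completed the 10. Of these 10, Ifih1 and H2-T23 were also among the 10 most like genes in the 16 libraries, at r = 0.86 for each. In the 16 libraries the 10 also held Iigp1 (0.90), Ifi47 (0.87), H2-D1 (0.84), Gbp6 (0.84) and Mx1 (0.83), which are class I or interferon-inducible genes, whereas Slc6a20a was at r = 0.63 there and Slc13a4 at 0.69. Ifih1 ran from 149 to 397 normalized counts over the 21 mice. All these points share their libraries and their normalization.

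Other genes of the class II pathway were compared between housings over both genotypes. All 6 genes of antigen processing had a positive log2 fold change in enriched mice with an unadjusted p under 0.05, against 9.77% of all genes in that direction, but edgeR called none (adjusted p = 0.196 to 0.231). Ctsd, the aspartic protease cathepsin D, was at 0.39 ± 0.13 (SE), Ifi30, the thiol reductase of the lysosome, at 0.32 ± 0.12, and Ctss, the cathepsin that trims the invariant chain, at 0.31 ± 0.09. Ctsl was at 0.27 ± 0.09, Lgmn, an asparaginyl endopeptidase, at 0.21 ± 0.07, and Ctsb at 0.14 ± 0.05. All 6 stayed positive in the 16 libraries, with 5 of 6 at an unadjusted p under 0.05, against 6.98% of all genes in that direction, at 0.29 ± 0.08 for Ctss and 0.21 ± 0.06 for Ctsd (edgeR adjusted p = 0.195 for both). The median log2 fold change of the 6 was 0.29, and 0.17 in the 16 libraries, against 0.01 and 0.00 over all genes tested.

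Of the 8 transcription factors and coactivators that act with CIITA, 3 had a negative log2 fold change in enriched mice at an unadjusted p under 0.05, against 9.13% of all genes in that direction, and none a positive one, and edgeR called none. They were Nfya, a subunit of NF-Y, at a log2 fold change of -0.30 ± 0.08 (SE, edgeR adjusted p = 0.179), Creb1 at -0.12 ± 0.04 and Crebbp at -0.13 ± 0.06. Rfx5, the large subunit of the RFX complex, was at -0.10 ± 0.12, with its lowest value, 290.04 normalized counts, in WTEE mouse 10. Of the 7 genes of interferon gamma signalling, Ifngr1 (0.14 ± 0.07) and Jak1 (-0.09 ± 0.04) had an unadjusted p under 0.05, in 2 directions and against 18.9% of all genes, and edgeR called none. Of the 7 genes of surface turnover and costimulation, March1, a ubiquitin ligase that removes class II from the surface, was at -0.18 ± 0.07 (unadjusted p = 0.016), Cd86 was at 0.19 ± 0.11, and edgeR called none. Of the 5 further class II genes, H2-Eb2 and H2-Ea-ps were too low to be tested, and H2-Oa, H2-Ob and H2-DMb2 were at 0.15 ± 0.22, -0.01 ± 0.11 and 0.21 ± 0.22, with none called. An unadjusted p under 0.05 was left in the 16 libraries for 2 of the 8 transcription factors and coactivators and 1 of the 7 genes of turnover and costimulation, all with a negative sign, against 7.64% of all genes in that direction, and for 0 of the 7 genes of interferon gamma signalling and 0 of the 3 further class II genes, and edgeR called none of them.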

How the data were processed

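Hippocampal poly(A) libraries of 24 Aged mice were sequenced as paired-end reads. After trimming, the authors used STAR 2.5 for alignment to GRCm38 and HTSeq 0.6.1p1 for unstranded counting of unique alignments, and what they deposited are raw counts per gene symbol. Read pairs assigned to no gene (8.41% to 33.0%) were kept out of library sizes. Groups came from the labels, and the 3 libraries the study excluded were shown apart.

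From the counts, TMM-normalized levels (scaled to the mean library size) and log2 fold changes were computed with edgeR 4.0.16 (quasi-likelihood test, filterByExpr, all 4 groups in a single fit, 21 libraries, 20187 genes, Benjamini-Hochberg adjustment), in R 4.3.3. DESeq2 1.42.0, all 24 libraries, other filters, scalings and pseudocounts, and the omission of each mouse were alternatives. The 16 libraries with Ttr under 10000 normalized counts were analysed after the data had been seen. The edgeR fit was tested on simulated data. Intervals and p-values cover the spread between mice, of which some may share a cage. Exon lengths and positions are from GENCODE M21, promoter windows from RefSeq. The 7 members, the pathway and marker lists and the rule for the 10 most like genes were chosen with earlier results of these data known, and no p-value was adjusted over a list alone.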

Additional observations from a re-analysis of the deposited data

Results flagged for a closer look

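Of 28 sets of values (7 genes in 4 groups), 4 held a mouse whose distance from the nearest other mouse, divided by the range of the group, exceeded Dixon's 95% critical value. Chance alone flags about 1 in 20 such sets if their values are normally distributed. The normalized counts were not on a log scale here, and the genes share their mice. The rate of 1 in 20 is therefore no measure for these 4. In WTEE, mouse 10 stood above the rest for H2-Aa (409.5 normalized counts, next 159), for H2-Ab1 (335, next 121) and for H2-DMa (923, next 657). In KDEE, mouse 12 stood above the rest for H2-Eb1 (274, next 141). Both mice are among the 5 libraries with Ttr over 100000, at 245630 and 434940, and WTEE mouse 10 also had the lowest Rps6ka5 level of its group (666, against a group median of 1100.1). The part of choroid plexus tissue in these values was not tested.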

How the results depend on the processing

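The count of members called, 0 of 7 in each of the 7 comparisons, held in all 60 results of the alternatives over these comparisons and in all 147 from the 21 fits that each left out a mouse. With all 24 libraries some fold changes, none of them called, turned sign, to log2 values for KDSH minus WTSH H2-Aa 0.077, H2-Ab1 0.075, Cd74 0.14, Ciita -0.17, for the interaction H2-Aa -0.12, H2-Ab1 -0.17, Cd74 -0.15, Ciita 0.29, H2-DMa -0.079, and for KD minus WT H2-Aa 0.017, Cd74 0.067, Ciita -0.022. In the 16 libraries with Ttr under 10000, chosen after seeing the data, log2 fold changes turned sign to values for WTEE minus WTSH H2-Aa -0.15, H2-Ab1 -0.13, H2-Eb1 -0.33, Cd74 -0.080, H2-DMa -0.13, for KDEE minus KDSH H2-Aa -0.019, for KDSH minus WTSH H2-Aa 0.17, Cd74 0.085, H2-DMb1 0.056, for KDEE minus WTEE H2-Aa 0.30, H2-Ab1 0.18, H2-Eb1 0.24, Cd74 0.26, Ciita -0.011, H2-DMb1 0.28, for enriched minus standard H2-Aa -0.085, H2-Eb1 -0.064, H2-DMa -0.037, and for KD minus WT H2-Aa 0.23, Cd74 0.17, H2-DMb1 0.17. There, correlations of Cd74 past the threshold in 21 mice missed it or, for library size, changed sign (H2-DMb1 0.44, microglia 0.35, activated microglia 0.56, border macrophages 0.44, T cells 0.54, choroid plexus 0.18, meninges and fibroblasts 0.49, endothelium 0.24, library size -0.056), and the SD between mice moved to 0.67 for H2-Aa, 0.65 for H2-Ab1, 0.41 for H2-Eb1, 0.37 for Ciita, 0.12 for H2-DMa, 0.19 for H2-DMb1. The correlation of Cd74 passed the threshold with Ciita at -0.54 in 24 libraries and -0.57 without subtraction of group means, with H2-DMa at 0.52 and 0.46, with dendritic cells at 0.51 with 10 counts added and 0.49 without the subtraction, and with B cells at 0.49 without it. Leaving out a mouse at a time gave log2 fold changes for WTEE minus WTSH H2-Aa -0.16 to 0.97, H2-Ab1 -0.050 to 0.78, H2-Eb1 -0.040 to 0.69, H2-DMa -0.082 to 0.074, for KDSH minus WTSH H2-Aa -0.53 to 0.16, Cd74 -0.44 to 0.083, H2-DMb1 -0.38 to 0.054, for KDEE minus WTEE H2-Aa -0.47 to 0.68, H2-Ab1 -0.38 to 0.55, H2-Eb1 -0.50 to 0.45, Cd74 -0.34 to 0.49, Ciita -0.054 to 0.37, H2-DMb1 -0.13 to 0.24, for the interaction H2-Aa -0.22 to 0.93, H2-Eb1 -0.087 to 0.86, Cd74 -0.23 to 0.61, Ciita -0.22 to 0.20, H2-DMa -0.020 to 0.15, H2-DMb1 -0.078 to 0.49, for enriched minus standard H2-DMa -0.0078 to 0.067, and for KD minus WT H2-Aa -0.35 to 0.22, H2-Ab1 -0.45 to 0.041, H2-Eb1 -0.46 to 0.016, Cd74 -0.23 to 0.19, H2-DMb1 -0.20 to 0.015. It gave correlations with Ciita -0.65 to -0.24, H2-DMa 0.15 to 0.64, microglia 0.43 to 0.63, activated microglia 0.48 to 0.68, border macrophages 0.56 to 0.74, dendritic cells 0.28 to 0.60, T cells 0.47 to 0.68, endothelium 0.48 to 0.69, pituitary 0.23 to 0.52, library size -0.029 to 0.24, and SDs of 0.34 to 0.52 for Ciita and 0.11 to 0.17 for H2-DMa. The cause of these changes was not tested. The number of genes called over all genes was 0, 0, 0, 0, 0, 1 and 0 in edgeR and 2, 14, 0, 118, 20, 41 and 0 in DESeq2, in the order WTEE minus WTSH, KDEE minus KDSH, KDSH minus WTSH, KDEE minus WTEE, interaction, enriched minus standard and KD minus WT. No paired analysis was possible because each mouse number occurs in a single group. Members other than H2-DMa had 24 to 754 raw counts per tested library, and H2-DMa 361 to 974.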
